A study of Mus musculus with 8 samples.

Results

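The BCL2 family genes Bcl2, Mcl1, Bcl2l1, Bcl2l11, Bbc3, Pmaip1, Bid, Bax and Bak1, together with the apoptosome gene Apaf1, were examined in naive CD4 T cells in which the chromatin organiser Satb1 had been targeted. The members were chosen by gene symbol, and all 10 were present among the 16418 genes of the deposited normalised expression table. The KO group comprised 4 libraries (Sample_2907_KO, Sample_2908_KO, Sample_2909_KO and Sample_2910_KO) from Satb1fl/fl x CD4-CreERT2wt/+ mice given tamoxifen. The WT group comprised 4 libraries (Sample_2911_WT, Sample_2913_WT, Sample_2914_WT and Sample_2915_WT) from mice of that same genotype left untreated. Both groups therefore carried the floxed Satb1 alleles and the Cre transgene, in which CD4 sequences drive a recombinase that acts after tamoxifen. Cells from spleen and lymph node had been sorted as CD3+CD4+CD25-CD44low/-CD62L+ in both groups, and polyA RNA was sequenced. The labels give no age, tamoxifen dose or interval after treatment. The tamoxifen itself and the intended deletion cannot be told apart, because KO mice alone received the drug. The labels do not say that the samples came from separate animals, so each p-value rests on sample-to-sample spread that may be technical.

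BCL2 family proteins decide whether the outer mitochondrial membrane stays intact. Pro-survival members (BCL2, MCL1 and BCL-XL, the product of Bcl2l1) bind and restrain the effectors BAX and BAK, which otherwise form pores in that membrane. BH3-only proteins (BIM from Bcl2l11, PUMA from Bbc3, NOXA from Pmaip1 and BID) engage the pro-survival proteins or the effectors, and cytochrome c released through the pores binds APAF1 to build the apoptosome, which activates caspase-9. In naive T cells, survival is known to depend on BCL2 and MCL1, and interleukin-7 signalling is known to sustain Bcl2.

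KO libraries held 7544075 to 9253620 counted reads and WT libraries 5227758 to 21998174. Satb1, the targeted gene, averaged 8029 ± 761.9 normalised counts in KO and 9117 ± 357.1 in WT (SD, n = 4 each). Its log2 fold change was -0.18 ± 0.059 (SE; edgeR adjusted p = 0.0582), short of the threshold of 0.05, and Sample_2908_KO (9088) lay within the WT range, so KO is used here as the name of the group. Satb1 passed without Sample_2908_KO (adjusted p = 0.00152), and also with limma-voom, with limma-trend, with library size alone and with no count filter. All 11 naive CD4 T cell markers had reads, and their summed normalised counts were 61537 to 62225 in KO and 61534 to 63008 in WT. Of the other marker lists, the sum of 6 regulatory and activated T cell markers, all with reads, was 1976 to 2498 in KO and 1151 to 1315 in WT, with 3185 Foxp3 reads in KO and 390 in WT. Its genes did not move together. Foxp3, which averaged 824.3 ± 239.8 normalised counts in KO and 74.2 ± 10.7 in WT (edgeR adjusted p = 0.000881), and Cd69, which averaged 973.7 ± 68.7 in KO and 584.7 ± 45.5 in WT (adjusted p = 1.65e-08), were called higher. Cd44, a gene of the sort, was called lower, at 285.5 ± 29.8 in KO and 359.5 ± 27.2 in WT (adjusted p = 0.0262), and Il2ra, Ikzf2 and Ctla4 were not called. The sum of 6 B cell markers, all with reads, was 3146 to 3642 in KO and 3914 to 4229 in WT. Ighm made up nearly all of the B cell sum, while Ms4a1 had 3 reads in KO and 0 in WT and Pax5 had 1 in KO and 0 in WT. The sum of 9 myeloid markers overlapped between the groups (350.5 to 453.7 in KO, 310.4 to 564.1 in WT), with S100a8 and S100a9 at 0 reads. The sum of 7 NK and CD8 T cell markers overlapped as well (120.8 to 167.1 in KO, 151.0 to 192.5 in WT), and the sum of 4 red cell markers did not exceed 2.37 in any library. In these bulk samples, a different number of cells of one type cannot be told apart from a different amount of RNA per cell.

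Transcript levels within the family spanned a wide range, and the order of the group means was the same in KO and WT except that Apaf1 stood above Bid in KO and below it in WT. Divided by exon length, Mcl1 was the most abundant member, at 1912 normalised counts per kb in KO and 1765 in WT. Bcl2 followed at 408.8 per kb in KO and 301.5 in WT, and then Bax at 257.1 in KO and 248.0 in WT. Bak1 stood at 119.4 per kb in KO and 109.5 in WT, and Bcl2l11 at 91.9 in KO and 86.5 in WT. Bbc3, Apaf1 and Bid came next, with means of at least 49.9 per kb in KO and at least 45.3 in WT. Bcl2l1 was low, at 24.4 per kb in KO and 25.2 in WT, and Pmaip1 was lowest, at 4.16 in KO and 2.39 in WT. Each member exceeded the next in this order in all 8 libraries, except that Bbc3 exceeded Apaf1 in 7 libraries and Apaf1 exceeded Bid in 4. Within each group, the ranges of Bbc3 and Apaf1 and of Apaf1 and Bid overlapped, so these neighbours were not separated beyond their spread. The ranges of Bcl2 and Bax overlapped in WT but not in KO, and those of Bcl2l11 and Bbc3 overlapped in KO but not in WT.

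**Figure D1:**
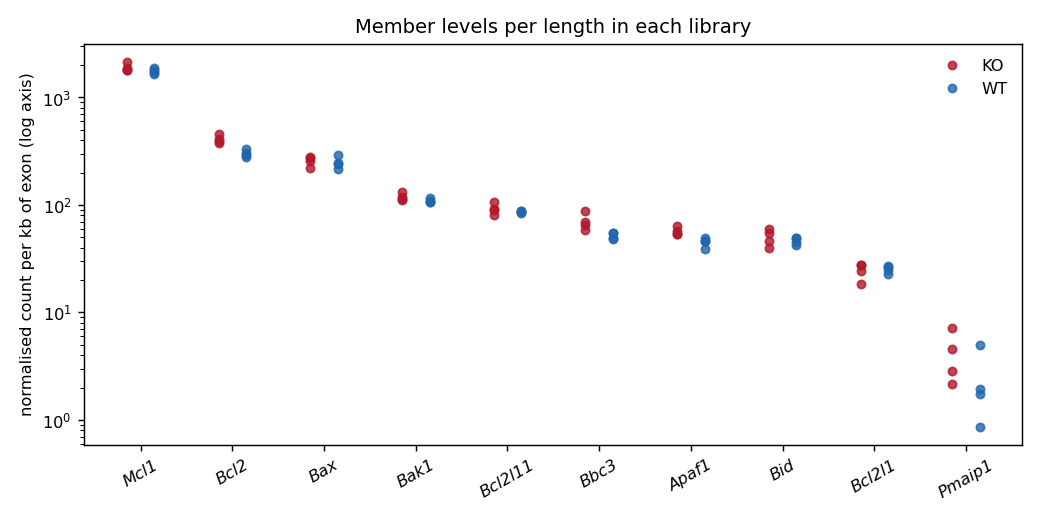
Expression of the 10 members per kb of exon (normalised counts per kb, log axis) in each KO and WT library (points). Mcl1 stands highest, with means of 1912 per kb in KO and 1765 in WT, and Pmaip1 lowest, with means of 4.16 in KO and 2.39 in WT.

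Few members differed between KO and WT cells beyond the spread of the libraries. Of the 10 members, 9 passed the filter on low counts, 2 were called higher in KO (Bcl2 and Apaf1) and 0 lower, at an adjusted p under 0.05 in the edgeR quasi-likelihood test over 11772 genes. Across all tested genes 6.39% were called in either direction and 3.98% were called higher in KO. In 3 tested members (Bcl2, Bbc3 and Apaf1) all KO libraries lay above all WT libraries, which was the case for 6.23% of tested genes. The median log2 fold change of the 9 tested members was 0.12, against -0.00 over all tested genes, and 8 of the 9 were positive, against 5874 of all 11772 tested genes. The members were chosen with earlier results of these data known, so these comparisons only describe them.

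**Figure D2:**
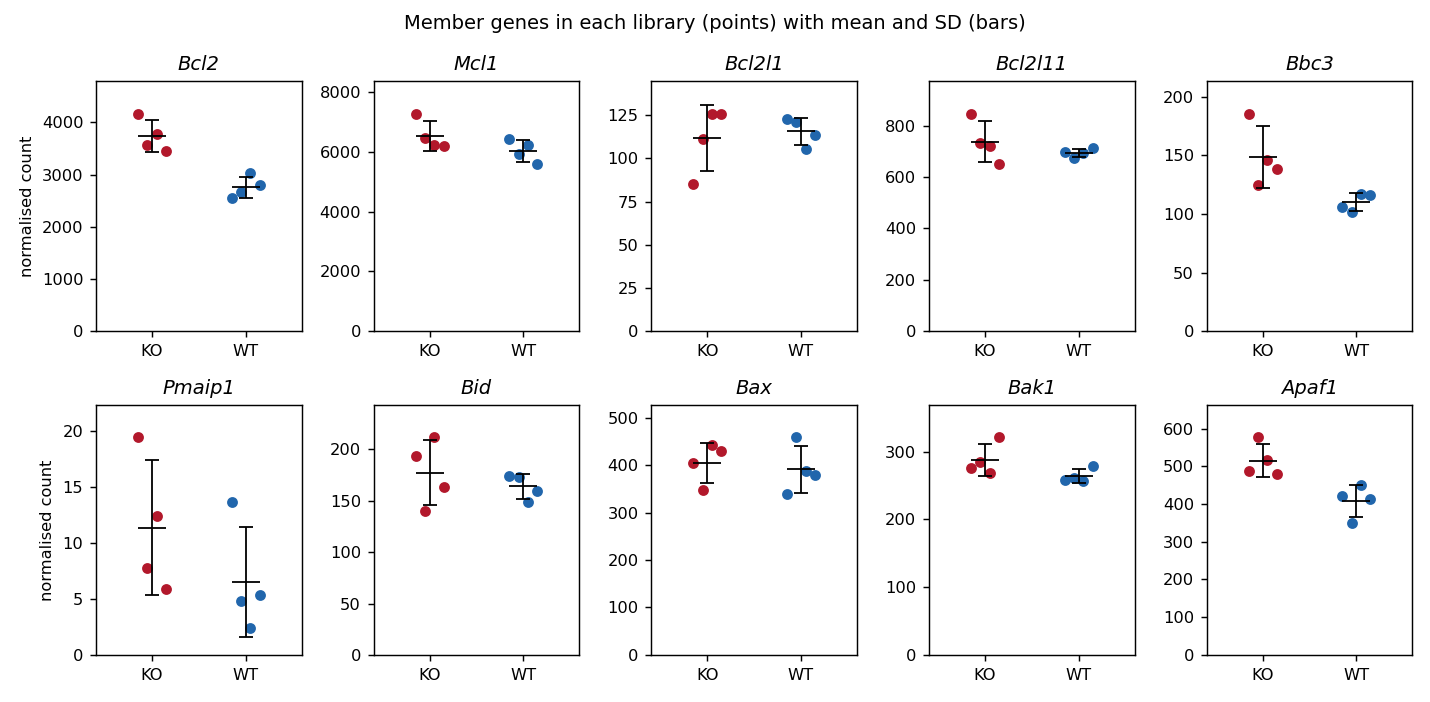
Normalised counts of each member in every KO and WT library (points), with the group means. KO and WT points are separated for Bcl2, Bbc3 and Apaf1 and overlap for the other 7 members.

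Among the pro-survival genes, Bcl2 rose in KO cells. Bcl2 (ENSMUSG00000057329.7, mm10 chromosome 1, 106538178 to 106714274, minus strand) had 4169, 3568, 3776 and 3459.7 normalised counts in the KO libraries, given here and throughout in order of sample number. The WT libraries had 2549, 2673, 3023 and 2798. Every KO library lay above every WT library, and the lowest KO value exceeded the highest WT value by more than the SD of either group. Mean levels were 3743 ± 312.5 in KO and 2761 ± 201.8 in WT (SD, n = 4 each). The log2 fold change was 0.44 ± 0.062 (SE; 95% interval 0.31 to 0.56; edgeR adjusted p = 1.08e-05), a 1.35-fold difference. Bcl2 passed the threshold in all 18 alternative settings. The higher regulatory and activated T cell marker sum, in which Foxp3 and Cd69 were higher and Cd44 lower, and the lower B cell marker sum in KO moved with this result, and their part in it was not tested.

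The sequence upstream of Bcl2 is shown because Bcl2 had the lowest adjusted p among the members. It covers the 250 bases before the RefSeq transcript start, chr1:106714291-106714540 (GRCm38.p6, the assembly behind mm10, minus strand), read 5′ to 3′, and GC boxes (GGGCGG on either strand) are in capitals.
Bcl2 upstream: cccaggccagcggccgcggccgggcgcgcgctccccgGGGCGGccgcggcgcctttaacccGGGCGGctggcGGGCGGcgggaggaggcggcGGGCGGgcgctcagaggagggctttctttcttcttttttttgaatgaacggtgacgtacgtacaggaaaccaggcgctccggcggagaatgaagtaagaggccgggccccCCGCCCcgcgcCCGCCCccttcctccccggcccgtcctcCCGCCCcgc
This window was 74.8% G and C and held 7 GC boxes. It held no match to the STAT-type motif TTCNNNGAA, the interferon-regulatory-factor-type motif GAAANNGAA or the E2F-type motif TTTNNCGC, each searched on both strands. Over 32851 RefSeq windows of that length, 32.7% held a GC box, 7.02% the STAT-type, 7.13% the interferon-regulatory-factor-type and 4.28% the E2F-type letters. RefSeq windows were read for 9 of the 10 members. A GC box lay in a window of 7 of these 9, the E2F-type letters in a window of Bcl2l1, and the STAT-type and interferon-regulatory-factor-type letters in none. Bcl2l1, Bcl2l11 and Bbc3 had several windows each, so these counts per gene are not comparable with the shares per window. These matches describe letters only.

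Mcl1, a pro-survival gene with a short-lived protein, did not pass the test. Mcl1 (chromosome 3, 95658788 to 95663176, plus strand) had 7274, 6461, 6220 and 6184 normalised counts in KO and 6415, 5913, 6213 and 5591 in WT. The groups overlapped, with Sample_2907_KO the highest library. Means were 6535 ± 507.9 in KO and 6033 ± 359.4 in WT, and the log2 fold change was 0.12 (95% interval -0.00 to 0.23; edgeR adjusted p = 0.290). Bcl2l1, which encodes BCL-XL (chromosome 2, 152780668 to 152831728, minus strand), had 85.2, 111.1, 125.8 and 125.5 normalised counts in KO and 122.7, 120.9, 105.2 and 113.6 in WT. Sample_2907_KO was the lowest library and the other 3 KO libraries lay within or just above the WT range. The log2 fold change was -0.03 (95% interval -0.33 to 0.28; edgeR adjusted p = 0.953), an interval that includes changes of either sign.

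Of the BH3-only genes, 3 were tested and 0 were called. Bcl2l11, encoding BIM (chromosome 2, 128126038 to 128162547, plus strand), had 846.4, 732.0, 721.6 and 651.2 normalised counts in KO and 698.7, 674.7, 692.9 and 711.4 in WT. The KO values surrounded the narrow WT range, with a coefficient of variation of 10.95% in KO and 2.20% in WT. The log2 fold change was 0.09 (95% interval -0.06 to 0.24; edgeR adjusted p = 0.594). Bid, whose protein is cleaved by caspase-8 and then acts on BAX and BAK (chromosome 6, 120891930 to 120916853, minus strand), had 193.0, 140.0, 211.6 and 163.4 normalised counts in KO and 173.8, 173.5, 148.9 and 159.4 in WT. The groups overlapped (log2 fold change 0.13, 95% interval -0.14 to 0.40; edgeR adjusted p = 0.668).

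Bbc3, which encodes the p53-inducible protein PUMA (chromosome 7, 16308393 to 16318205, plus strand), had 185.5, 124.6, 145.8 and 138.5 normalised counts in KO and 105.7, 101.8, 117.4 and 115.9 in WT. All KO libraries lay above all WT libraries, with Sample_2907_KO well above the rest. Means were 148.6 ± 26.1 in KO and 110.2 ± 7.63 in WT. The log2 fold change was 0.41 ± 0.141 (SE; 95% interval 0.12 to 0.70), of a size close to that of Bcl2, but the edgeR adjusted p of 0.0818 missed the threshold. Leaving out Sample_2907_KO gave 0.29 (adjusted p = 0.354), and leaving out Sample_2908_KO gave 0.49 (adjusted p = 0.0393). Pmaip1, encoding NOXA, had too few reads to be tested across genes, with 18, 8, 13 and 5 reads in KO and 8, 3, 6 and 7 in WT. As normalised counts these were 19.4, 7.73, 12.4 and 5.92 in KO and 13.6, 4.77, 2.36 and 5.34 in WT, and the groups overlapped. Its CPM averaged 1.29 ± 0.68 in KO and 0.74 ± 0.56 in WT, with a 2-sided exact permutation p of 0.257 (the smallest possible is 0.0286). The pooled reads, 44 in KO and 24 in WT, gave a depth-adjusted ratio of 2.41 (95% interval 1.43 to 4.14, exact conditional), an interval that covers counting error only and not the spread between libraries. Without Sample_2914_WT, the deepest library with 6 of the WT reads, the ratio was 1.601 (95% interval 0.906 to 2.94), and without each other library it was between 1.88 and 3.19.

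The pore-forming effectors did not pass the test. Bax (chromosome 7, 45461697 to 45466898, minus strand) had 403.3, 346.7, 442.3 and 428.6 normalised counts in KO and 339.1, 458.3, 387.6 and 378.2 in WT. The highest and the lowest library were both WT, and the log2 fold change was 0.05 (95% interval -0.14 to 0.25; edgeR adjusted p = 0.833). Bak1 (chromosome 17, 27019810 to 27029009, minus strand) had 276.0, 283.9, 268.8 and 320.9 normalised counts in KO and 257.3, 261.0, 256.4 and 279.1 in WT. Sample_2910_KO was the highest, Sample_2908_KO also lay above the WT range, and the other 2 KO libraries lay within it. The log2 fold change was 0.12 (95% interval -0.07 to 0.32; edgeR adjusted p = 0.561). Bak1 lies wholly inside the span of Ggnbp1 on the opposite strand. Ggnbp1 had 199 reads in KO and 282 in WT (log2 fold change -0.10, edgeR adjusted p = 0.855). Since the library kit does not mark strand, reads from any exon bases that the 2 genes share cannot be told apart. How far their exons overlap was not examined.

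Apaf1, the scaffold of the apoptosome, rose in KO cells. Apaf1 (ENSMUSG00000019979.12, chromosome 10, 90989311 to 91082770, minus strand) had 487.4, 576.5, 515.7 and 480.7 normalised counts in KO and 420.9, 350.1, 449.1 and 414.0 in WT. The groups did not overlap, with Sample_2908_KO the highest and Sample_2913_WT the lowest. Means were 515.1 ± 43.7 in KO and 408.5 ± 41.8 in WT (SD, n = 4 each). The log2 fold change was 0.32 ± 0.086 (SE; 95% interval 0.15 to 0.50; edgeR adjusted p = 0.0179), a 1.25-fold difference. The call was lost when either of those libraries was left out, at a log2 fold change of 0.26 in both cases (adjusted p = 0.0750 without Sample_2908_KO and 0.0863 without Sample_2913_WT). As for Bcl2, the part of the regulatory and activated T cell and B cell marker sums was not tested.

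**Figure D3:**
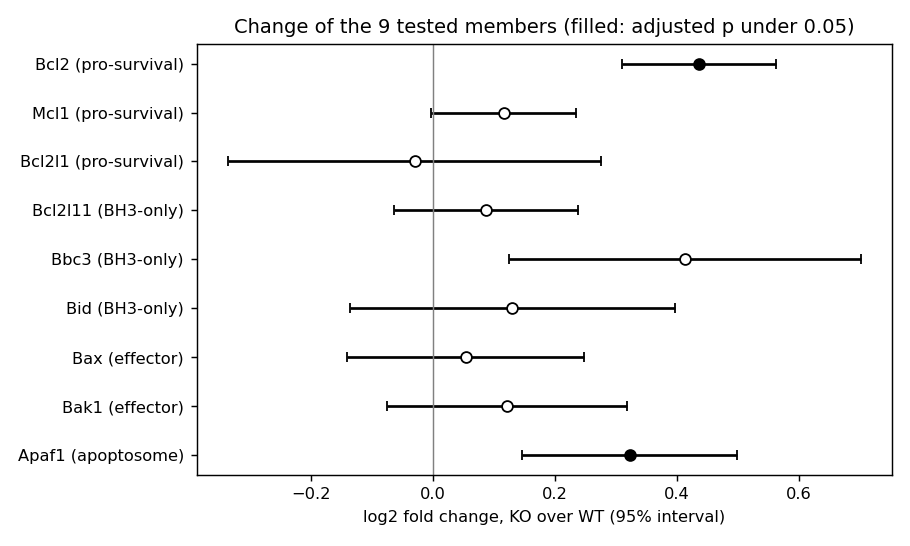
Log2 fold change, KO over WT, of the 9 tested members with 95% intervals (edgeR); filled points have an adjusted p under 0.05. Bcl2 (0.44) and Apaf1 (0.32) are filled, and Bbc3 (0.41) has a wider interval, 0.12 to 0.70.

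**Figure D4:**
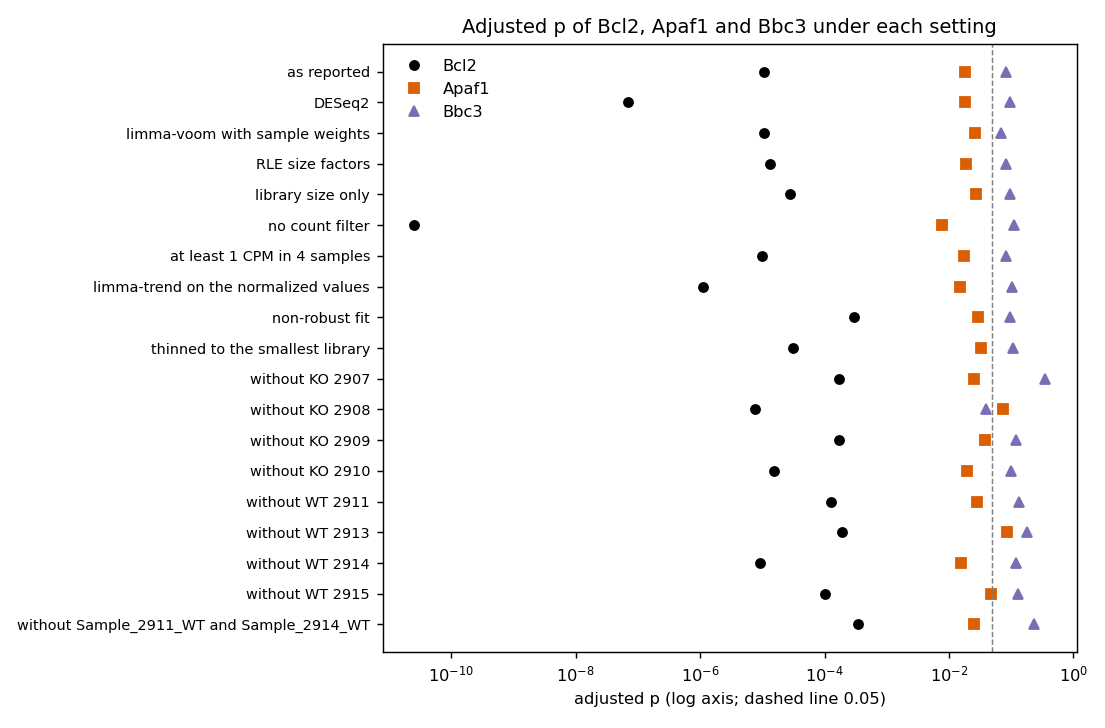
Adjusted p (log axis, dashed line at 0.05) of Bcl2, Apaf1 and Bbc3, KO against WT, as reported and under each of 18 alternative settings. Bcl2 lies under 0.05 in every setting. Apaf1 lies above 0.05 without Sample_2908_KO and without Sample_2913_WT, and Bbc3 lies under 0.05 without Sample_2908_KO alone.

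Apaf1 starts close to a gene that is transcribed in the opposite direction. The stretch between them is shown for that arrangement. It holds the 169 bases between the annotated starts of Apaf1 and Ikbip, chr10:91082771-91082939 (GRCm38.p6), read 5′ to 3′ on the minus strand towards Apaf1, with GC boxes in capitals.
Apaf1 to Ikbip: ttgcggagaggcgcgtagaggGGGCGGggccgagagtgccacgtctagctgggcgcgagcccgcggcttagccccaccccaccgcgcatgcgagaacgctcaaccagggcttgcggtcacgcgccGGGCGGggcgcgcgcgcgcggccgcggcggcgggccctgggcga
The stretch held 2 GC boxes, and the 250-base window upstream of the Apaf1 start was 75.6% G and C and held no STAT-type, interferon-regulatory-factor-type or E2F-type letters. Ikbip averaged 17.8 ± 4.79 normalised counts in KO and 7.37 ± 3.83 in WT. The difference, 1.07 ± 0.401 on the log2 scale (SE), missed the threshold (edgeR adjusted p = 0.123).

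Since pro-survival and pro-apoptotic proteins act by binding each other, transcript ratios within each library were computed per kb. The ratio of Bcl2 to Bcl2l11 was 4.32, 4.27, 4.59 and 4.66 in KO and 3.20, 3.47, 3.82 and 3.45 in WT. All KO libraries lay above all WT libraries, with means of 4.46 ± 0.19 in KO and 3.49 ± 0.26 in WT. The ratio of Bcl2 to Mcl1 was 0.214, 0.206, 0.227 and 0.209 in KO and 0.148, 0.169, 0.182 and 0.187 in WT, again without overlap. The ratio of Bcl2 to Bax was 1.78, 1.77, 1.47 and 1.39 in KO and 1.29, 1.004, 1.34 and 1.27 in WT, also without overlap, though the lowest KO and highest WT values were close. These 3 ratios share Bcl2 as numerator, so they are not separate results. Ratios of Bcl2 to its BH3-only antagonist Bbc3 overlapped (5.91 ± 0.59 in KO, 5.81 ± 0.25 in WT), as did those of Bcl2 to Apaf1 (7.21 ± 0.95 in KO, 6.70 ± 0.64 in WT). Ratios without Bcl2 overlapped as well, with Mcl1 to Bcl2l11 at 20.9 ± 0.99 in KO and 20.4 ± 1.36 in WT and Bax to Bak1 at 2.16 ± 0.28 in KO and 2.27 ± 0.30 in WT. No test was made of these ratios, which describe transcripts and not proteins.

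The libraries of a group did not vary alike. Sample_2907_KO had the highest KO value in 5 of the 10 members (Bcl2, Mcl1, Bcl2l11, Bbc3 and Pmaip1) and the lowest in Bcl2l1, while Sample_2910_KO had the lowest KO value in 5 members. Among WT libraries, Sample_2911_WT was highest in 4 members. Sample_2914_WT, the deepest library, was lowest in 4 and highest in 3 (Bcl2, Bbc3 and Apaf1). The coefficient of variation was larger in KO than in WT in 7 of the 10 members. Such counts over all tested genes are not given here, so whether these are particular to the members cannot be told.

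Genes that act around the members were mostly not called. Over 7 pathway lists with 105 genes outside the members, 94 were tested. Of these 94, 6 were called higher in KO and 0 lower, and the median log2 fold change of the 94 was 0.01. For comparison with the called counts of each list, 6.39% of all tested genes were called in either direction and 3.98% higher in KO. Over all tested genes, 18% had an unadjusted p under 0.05 in edgeR, the share against which such counts in each list stand. None of the 11 tested genes of the other BCL2 family and BNIP list was called (0 with an unadjusted p under 0.05 in edgeR), with a median log2 fold change of -0.02. In that list the BH3-only genes Bmf and Bad had log2 fold changes of -0.30 (edgeR adjusted p = 0.410) and 0.16 (0.726). Bcl2a1b, one of several near-identical A1 paralogs whose reads can be split between copies, had 0.34 (0.710). Among caspases, cytochrome c and IAP genes, 0 of 17 were called, with 3 at an unadjusted p under 0.05 in edgeR and a median of 0.02. Casp9, the caspase that APAF1 activates, averaged 237.4 normalised counts in KO and 218.2 in WT (log2 fold change 0.10, edgeR adjusted p = 0.714). Cycs, which encodes cytochrome c, averaged 130.1 ± 17.4 in KO and 109.5 ± 22.8 in WT (0.28, adjusted p = 0.377). The caspase inhibitor Xiap averaged 1153 ± 105.7 in KO and 1009 ± 35.7 in WT (0.19, adjusted p = 0.0797).

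The death receptor list had 1 called gene of 14, Casp8, and a median log2 fold change of 0.09, with 6 genes at an unadjusted p under 0.05 in edgeR. Casp8, the initiator caspase that cleaves BID, had 2014, 2086, 2031 and 2067 normalised counts in KO and 1628, 1763, 1709 and 1675 in WT. The groups did not overlap, and the log2 fold change was 0.28 ± 0.053 (SE; edgeR adjusted p = 0.000836). Ripk1, a kinase of the same receptor complexes, averaged 818.2 in KO and 709.1 in WT (0.21, adjusted p = 0.0516), and Cflar, which encodes the caspase-8 inhibitor c-FLIP, averaged 2185 ± 159.1 in KO and 2230.3 ± 43.4 in WT (-0.03, adjusted p = 0.858). None of the 11 tested genes of the list of p53 and its targets outside the members was called, with 1 at an unadjusted p under 0.05 in edgeR (Sesn1, adjusted p = 0.0764) and a median of 0.01. Trp53 itself averaged 1725 ± 124.9 in KO and 1758 ± 100.9 in WT (-0.03, adjusted p = 0.877).

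**Figure D5:**
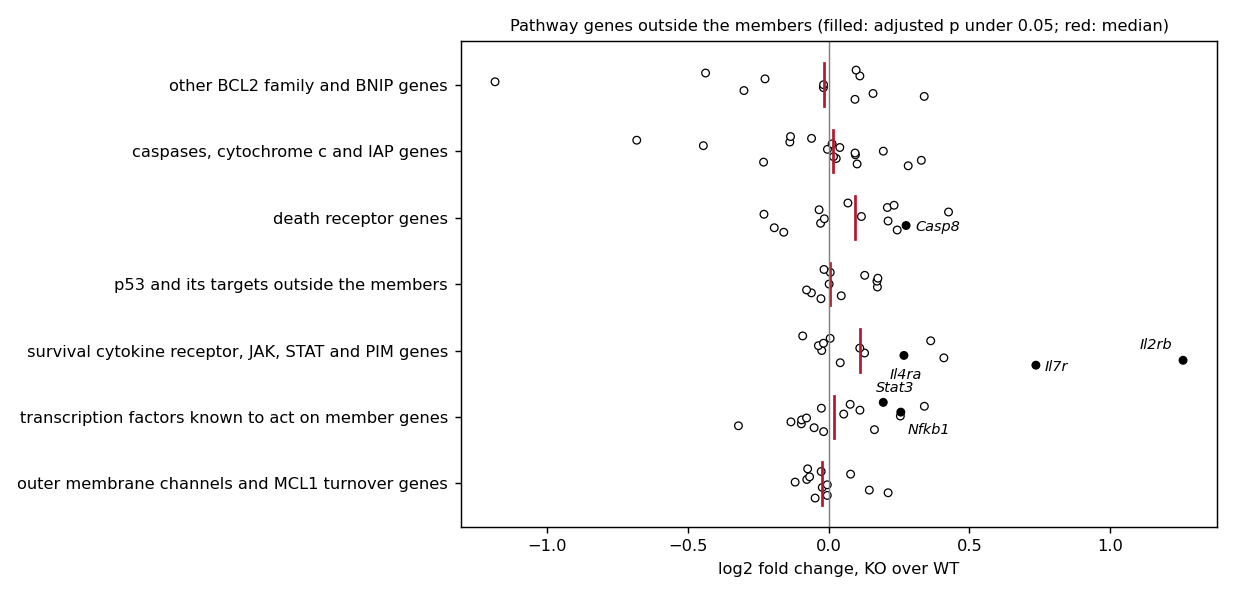
Log2 fold change, KO over WT, of every tested pathway gene outside the members, by list (points; filled where the edgeR adjusted p is under 0.05), with each list's median as a red bar. The 6 filled genes all lie to the right of 0, and the medians lie between -0.02 and 0.11.

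Receptors and signalling genes of the survival cytokines had 3 of 13 genes called higher and a median log2 fold change of 0.11. Il2rb, the receptor chain shared by interleukin-2 and interleukin-15, had 485.2, 440.4, 531.9 and 415.6 normalised counts in KO and 233.5, 189.4, 208.8 and 159.4 in WT. The lowest KO library was well above the highest WT library (log2 fold change 1.26 ± 0.107, SE; edgeR adjusted p = 8.38e-10). Il7r, the interleukin-7 receptor alpha chain, had 13171, 13374, 9982 and 10737 in KO and 6948, 6274 and 6646 in the first 3 WT libraries, with 8497 in Sample_2915_WT. Those groups did not overlap either (0.74 ± 0.138, SE; adjusted p = 0.0245), but the call was lost in 5 of 18 alternatives, namely without Sample_2907_KO, Sample_2908_KO, Sample_2911_WT or Sample_2914_WT and without that WT pair together. Il4ra, the interleukin-4 receptor alpha chain, averaged 4157 ± 466.7 in KO and 3452 ± 142.6 in WT (0.27, adjusted p = 0.00846), and missed the threshold without the same WT pair (adjusted p = 0.130). Stat5a and Stat5b, the transcription factors downstream of these receptors, had log2 fold changes of -0.04 and -0.02 and were not called.

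Of 16 transcription factors known to act on member genes, 2 were called higher and the median log2 fold change was 0.02, with 6 at an unadjusted p under 0.05 in edgeR. Nfkb1 averaged 3182 ± 193.2 normalised counts in KO and 2665 ± 61.5 in WT (0.26, adjusted p = 0.00240). Stat3 averaged 3595 ± 129.1 in KO and 3146 ± 246.3 in WT (0.19, adjusted p = 0.0380) and lost its call in 9 of 18 alternatives, with adjusted p up to 0.401. Foxo3, whose product is known to induce Bcl2l11 and Bbc3, differed by 0.16 on the log2 scale (adjusted p = 0.204, not called), and Foxo1 stood at -0.02 (0.916). Ddit3 was lower in KO without overlap of the groups, at 189.5 ± 5.87 in KO and 235.0 ± 13.9 in WT. It was not called (-0.32, edgeR adjusted p = 0.0632). None of the 12 genes of outer membrane channels and MCL1 turnover was called (0 with an unadjusted p under 0.05 in edgeR), with a median of -0.02.

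The genes next to the members along the chromosome were compared for the same libraries. Of 20 nearest tested protein-coding neighbours, 2 were called, against 6.39% of all tested genes. Beside Bcl2, the nearest were Kdsr, 6.19 kb away (428.1 ± 31.6 normalised counts in KO, 416.3 ± 32.2 in WT; log2 fold change 0.03, edgeR adjusted p = 0.907), and Phlpp1, 143.9 kb away (163.1 ± 23.6 in KO, 139.7 ± 5.15 in WT; 0.23, adjusted p = 0.375). Neither passed. On the other side of Apaf1 from Ikbip, the nearest tested gene was Uhrf1bp1l, 1169.4 kb away, at -0.03 on the log2 scale (adjusted p = 0.888). The called neighbours lay beside members that were not called. Adamtsl4, 13.0 kb from Mcl1, averaged 117.2 ± 9.58 in KO and 79.9 ± 22.6 in WT (0.60, adjusted p = 0.0360). Acoxl, 2.17 kb from Bcl2l11, averaged 14.6 ± 2.59 in KO and 32.8 ± 18.6 in WT (-1.20, adjusted p = 0.0400), with overlapping groups. Both lost their calls in many alternatives, 8 of 18 for Adamtsl4 (adjusted p up to 0.340) and 9 of 17 for Acoxl (up to 0.314). Antisense or nested genes that overlap Bcl2 and Apaf1 carried few reads, the most being 27 in KO and 21 in WT for D630008O14Rik, which runs antisense to Bcl2. The span of Bid shares 913 bases with that of Bcl2l13 on the opposite strand, and Bcl2l13 stood at -0.02 on the log2 scale (adjusted p = 0.939). Bcl2l13 had 2385 reads in KO and 3165 in WT, and Bid had 684 and 798. As for Bak1 and Ggnbp1, reads from any shared exon bases cannot be told apart, and the exon overlap was not examined.

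The genes whose levels ran most like those of the called members were found by Pearson correlation of log2 CPM over the 8 libraries, among 8982 genes averaging 5 CPM or more. For Bcl2 these were Cdk6 (r = 0.980), Slc22a5 (0.969) and Plekhm1 (0.968). Cdk6, a cyclin-dependent kinase of G1, averaged 399.5 ± 35.2 normalised counts in KO and 277.5 ± 40.0 in WT (log2 fold change 0.50, edgeR adjusted p = 0.00131), while Slc22a5 (0.26, adjusted p = 0.114) and Plekhm1 (0.13, adjusted p = 0.261) were not called. For Apaf1 they were Lsm3 (0.974), Erlin2 (0.955) and Tbrg1 (0.953), with log2 fold changes of 0.25, 0.12 and 0.17 and none called. The 8 points share 2 groups and their libraries, so these correlations are a description of the samples.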

How the data were processed

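Per the labels, polyA libraries were made with the TruSeq RNA Sample Preparation Kit v2, which does not mark strand, and sequenced as single 75 bp reads. DESeq2 1.22.2, R 3.5.3, CASAVA 1.8.2 and FastQC, with build mm10, are named by the submitters' processing notes; which aligner, counter and annotation were used is not given in the sources used here. The deposited count table holds whole reads for 53465 gene IDs. The deposited normalised signal table lists the 16418 genes that reach 10 reads summed over 8 libraries, each value being the count divided by 1 size factor per library.

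The test was edgeR 4.0.16 on the counts (R 4.3.3; robust quasi-likelihood F test, TMM, filterByExpr, Benjamini-Hochberg over 11772 genes). SE was obtained by dividing the size of the log2 fold change by √F. Levels are the deposited normalised counts (mean ± SD), and levels per kb use union exon lengths of GENCODE M21. Steps were checked on simulated counts. Pmaip1, with few reads, was tested by exact permutation over 70 relabellings. The members and lists were chosen with earlier results of these data known. Named genes are all members, called pathway genes (at most 4 a list by lowest adjusted p) with those needed to say what a list did, nearest tested and overlapping genes, and the 3 most alike genes per called member; some genes of the lists are not reported here. Upstream sequences are from RefSeq (GRCm38.p6). Alternatives were DESeq2 1.42.0, limma 3.58.1 (voom with weights; trend on log2 of normalised values plus 1), RLE, library size only, no filter, 1 CPM in 4 libraries, a non-robust fit, thinning to the smallest library, leaving out each library, and leaving out Sample_2911_WT and Sample_2914_WT together.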

Additional observations from a re-analysis of the deposited data

How the results depend on the processing

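Bcl2 kept its direction and its call in all 18 alternatives (log2 fold change 0.38 to 0.48, adjusted p 2.53e-11 to 0.000352). Apaf1 ranged from 0.26 to 0.42 (adjusted p 0.00786 to 0.0863). Leaving out each library gave 1 to 2 called members, with 1 (Bcl2) without Sample_2913_WT and 2 (Bcl2 and Bbc3) without Sample_2908_KO. Leaving out Sample_2911_WT and Sample_2914_WT together, which leaves fewer samples, gave 481 changed genes over the whole table and 3 called pathway genes. The sign of 4 uncalled genes was not stable: Bax was -0.014 after thinning and -0.033 without that WT pair, Kdsr was -0.012 after thinning and -0.026 without the pair, and leaving out each library gave -0.096 to 0.080 for Bcl2l1, -0.012 to 0.078 for Kdsr and -0.063 to 0.019 for Uhrf1bp1l; the cause was not tested. No scaling moved the median of all genes by more than -0.02 on the log2 scale. No paired analysis was possible because the groups share no sample number. Depth limits Pmaip1 most, with 3 to 18 reads per library.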
